A study of Mus musculus with 6 samples.

Results

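Transcripts of 10 circadian clock genes were examined in innate lymphoid cells (ILCs) of the mouse lung: Nr1d1, Nr1d2, Per1, Per2, Per3, Cry1, Cry2, Dbp, Arntl and Clock. They are the core clock and output genes named by symbol, and all 10 were found among the 14416 genes of the deposited count table. The cells were Lin-Thy1.2+ ILCs, lymphocytes that carry Thy1.2 and lack markers of other blood lineages, sorted from lungs of C57BL/6J mice. Of the 6 libraries, 3 came from mice of the genotype RBM3KO, which lack the gene of the cold-inducible RNA-binding protein RBM3, and 3 from WT mice. Mice of both genotypes had been given the mould allergen Alternaria alternata at 25 µg, 3 times over 7 days, so there was no unchallenged group. RNA was amplified by Smart-seq2, a full-length cDNA method for small amounts of polyA RNA. The sources used here do not give age, sex, the number of mice behind a library, whether RBM3 was lost in all cells, or the hour of tissue collection.

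The clock is a transcriptional loop. ARNTL (also called BMAL1) and CLOCK bind E-boxes as a pair and drive the Per, Cry, Nr1d and Dbp genes. The PER and CRY proteins then repress that pair, the receptors NR1D1 and NR1D2 (REV-ERB alpha and beta) repress Arntl, and DBP acts on D-box sites, among them those of the Per genes. A clock set to another phase can therefore displace the E-box and D-box driven genes and the Arntl side in opposite directions. At a single hour of collection this need not hold for every gene. In mice, Arntl and Nr1d1 are known to affect the ILC3s of the gut, and RBM3 and its relative CIRBP are known from mouse fibroblasts to bind clock gene transcripts.

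Promoter windows were searched for motifs of the loop. They are printed for the receptor gene that changed, its paralogue, the target of both receptors and an E-box driven repressor. Windows run from 250 bases before to 50 bases after a transcript start and come from RefSeq on build GRCm38.p6. Of the 10 genes, 9 had an entry, which excepts Per2. Capitals mark the searched motifs, read on both strands: CACGTG is the E-box. CACGTT, or on the opposite strand AACGTG, is the E-prime box. TAGGTCA is the element of REV-ERB and ROR receptors. The D-box is TTATGTAA, and the cyclic AMP response element is TGACGTCA.
Nr1d2, chr14:18239057-18239356, minus strand: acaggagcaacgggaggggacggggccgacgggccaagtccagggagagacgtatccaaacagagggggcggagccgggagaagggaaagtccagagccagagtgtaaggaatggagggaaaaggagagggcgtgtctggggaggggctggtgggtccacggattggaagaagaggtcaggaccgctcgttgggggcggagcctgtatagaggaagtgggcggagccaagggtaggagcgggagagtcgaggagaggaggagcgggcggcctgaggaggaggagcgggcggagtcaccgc
Nr1d1, chr11:98775328-98775627, minus strand: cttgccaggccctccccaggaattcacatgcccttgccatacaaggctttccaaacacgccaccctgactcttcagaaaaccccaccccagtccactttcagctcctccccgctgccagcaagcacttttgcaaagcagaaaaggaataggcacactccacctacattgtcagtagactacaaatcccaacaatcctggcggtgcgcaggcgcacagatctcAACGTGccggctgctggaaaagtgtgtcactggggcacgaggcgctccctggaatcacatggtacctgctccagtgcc
Arntl, chr7:113207261-113207560, plus strand: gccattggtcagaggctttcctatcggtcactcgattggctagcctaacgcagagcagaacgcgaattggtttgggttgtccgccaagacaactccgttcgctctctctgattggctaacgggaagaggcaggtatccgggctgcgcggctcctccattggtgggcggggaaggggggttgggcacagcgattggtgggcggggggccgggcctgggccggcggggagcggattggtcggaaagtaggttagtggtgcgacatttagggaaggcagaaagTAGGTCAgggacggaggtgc
Cry1, chr10:85185005-85185304, minus strand: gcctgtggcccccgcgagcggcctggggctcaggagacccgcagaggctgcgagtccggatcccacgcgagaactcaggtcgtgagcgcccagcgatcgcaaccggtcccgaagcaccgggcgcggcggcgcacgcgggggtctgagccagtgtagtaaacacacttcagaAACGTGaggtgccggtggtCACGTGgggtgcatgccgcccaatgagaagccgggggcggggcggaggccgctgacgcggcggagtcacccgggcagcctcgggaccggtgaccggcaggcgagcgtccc

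None of these motifs occurs in the Nr1d2 window, nor in the windows of Dbp and Clock, which are not printed. The Nr1d1 window holds an E-prime box 28 bases before the start, and the Cry1 window an E-box 60 bases and an E-prime box 79 bases before it. The REV-ERB and ROR element of the Arntl window lies 30 bases past the start. Outside the printed windows, Per1 had an E-box 166 bases, Cry2 an E-prime box 166 bases, and Per3 D-boxes 205 and 158 bases before a start. Of 32851 mouse promoter windows of that length, 7.15% hold the E-box, 4.68% the E-prime box, 2.61% the REV-ERB and ROR element, 0.938% the D-box and 1.79% the cyclic AMP response element, so a match describes the letters only.

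Libraries held 7498247 to 16936670 counts in RBM3KO and 13339633 to 25068137 in WT, and the shallowest was RBM3KO replicate 3. Rbm3 itself stood at 26.8 ± 4.63 CPM in RBM3KO and 292 ± 22 CPM in WT (SD, n = 3 each), so every library matched its label. CPM is the count per 1000000 counts of the library after TMM scaling, which evens out library composition, unless said otherwise. Across all 11382 tested genes, edgeR's quasi-likelihood test called 28 higher and 114 lower in RBM3KO (adjusted p under 0.05), and 33 higher and 77 lower with an offset for GC content. The 11 listed ILC2 markers summed to between 10063 and 10474 CPM of the total count in RBM3KO and between 7634 and 8889 in WT, and the 6 T cell markers in the table to between 187 and 350 and between 174 and 283. In bulk libraries fewer cells of a type and less RNA per cell cannot be told apart.

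Nr1d2 rose in RBM3KO ILCs, and it was the only 1 of the 10 clock genes past the test. The other 9 did not pass, with 5 estimates of the 10 above 0 and 5 below, and a median log2 fold change of -0.03 against 0.01 over all tested genes. Over all tested genes 0.246% were called higher and 1.00% lower in RBM3KO, beside 1 and 0 of the 10. Nr1d2 was also the only 1 of the 10 whose genotypes did not overlap, where 8.43% of all tested genes stood higher in RBM3KO with no overlap and 18.9% had no overlap in either direction, so the separation by itself is no more frequent here than elsewhere. All 10 passed the filter on low counts, Clock, Per2 and Dbp with the help of WT: at the filter's level of about 10 counts in a library of median depth, Clock stood in 1 of 3 RBM3KO libraries, and Per2 and Dbp in 2 of 3, against 3 of 3 in WT.

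**Figure D1:**
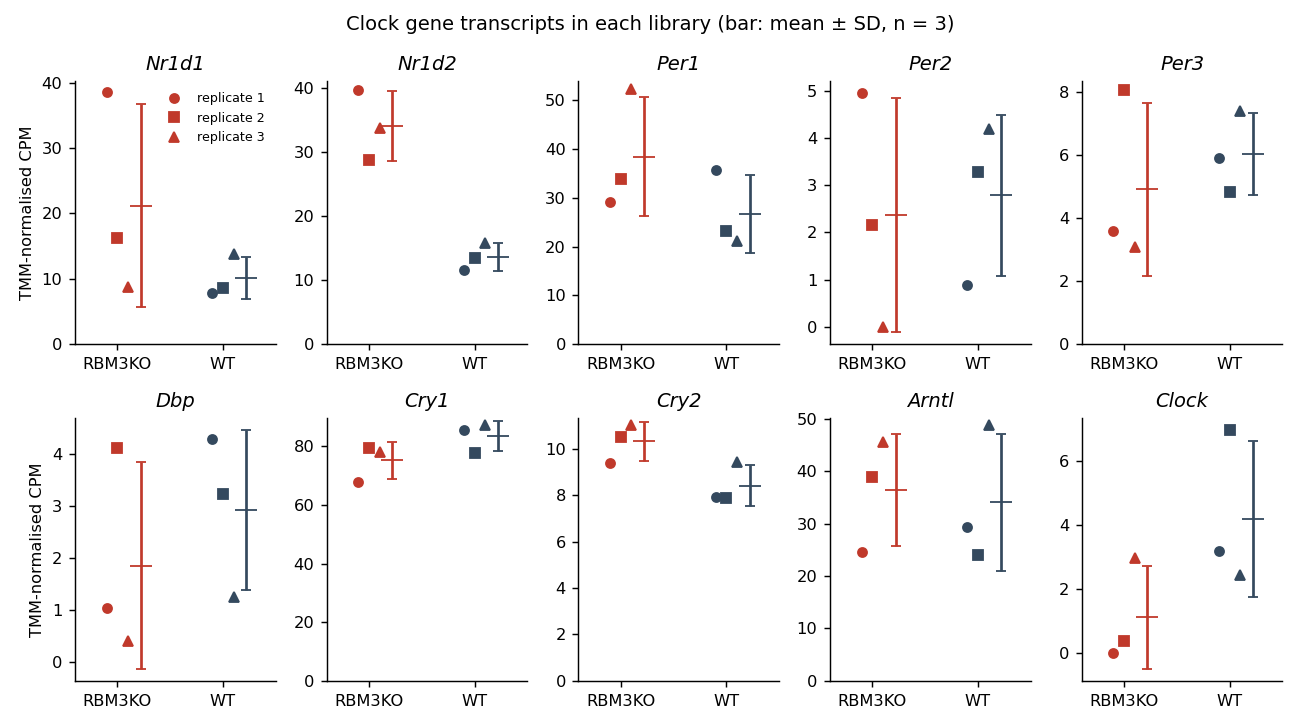
TMM-normalised CPM of the 10 clock genes in each library, RBM3KO left and WT right, with a marker shape per replicate number and the mean ± SD beside the points. The Nr1d2 libraries of RBM3KO lie between 28.8 and 39.7 CPM, above the WT libraries at 11.6 to 15.8 CPM, while the genotypes overlap for the other 9 genes.

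The REV-ERB receptors are repressors that bind the element shown for Arntl. Nr1d2 (chromosome 14, 18204054 to 18239127, minus strand, mm10) had 39.7, 28.8 and 33.8 CPM in the RBM3KO libraries, from 609, 483 and 251 counts, against 11.6, 13.5 and 15.8 CPM in the WT libraries, from 157, 229 and 404 counts. Every RBM3KO library stood above every WT library. The means were 34.1 ± 5.45 CPM in RBM3KO and 13.6 ± 2.11 CPM in WT (SD, n = 3 each). On the log2 scale Nr1d2 was higher by 1.32 with an SE of 0.27 (edgeR adjusted p = 0.0413), or 2.50-fold with a 95% interval of 1.66 to 3.75. The call ended when any of the 6 libraries was left out (log2 fold change 1.20 to 1.44, adjusted p 0.0808 to 0.204) and with the GC offset (1.36, adjusted p = 0.0629).

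**Figure D2:**
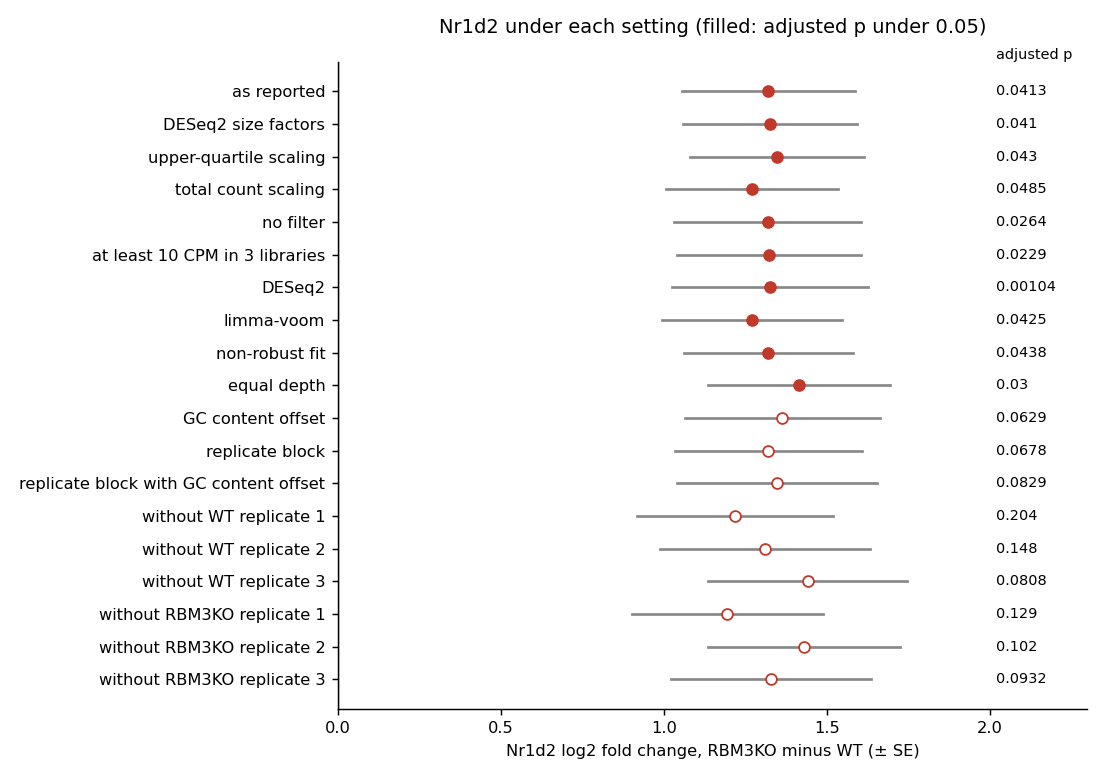
Log2 fold change of Nr1d2 (RBM3KO minus WT, ± SE) under each setting, with the adjusted p at the right and a filled point where it is under 0.05. The estimate stays between 1.20 and 1.44 while the adjusted p moves from 0.00104 with DESeq2 to 0.204 without WT replicate 1.

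Nr1d1, the paralogue with the larger known role in the mouse clock, had 38.6, 16.2 and 8.75 CPM in RBM3KO and 7.91, 8.58 and 13.8 CPM in WT. RBM3KO replicates 1 and 2 stood above all WT libraries and RBM3KO replicate 3 among them. The Nr1d1 log2 fold change of 1.07 (SE 0.50) had a 95% interval of -0.04 to 2.18 (edgeR adjusted p = 0.422), and it was 0.31 without RBM3KO replicate 1. Nr1d1 (chromosome 11, 98767932 to 98775333, minus strand) shares 263 of its 3077 exon bases, or 8.55%, with the opposite-strand gene Thra, and Smart-seq2 libraries do not mark strand. Thra, a thyroid hormone receptor gene, had 3.13, 5.37 and 4.04 CPM in RBM3KO and 4.43, 4.00 and 6.11 CPM in WT, lower than Nr1d1 in every library.

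The PER proteins repress the ARNTL and CLOCK pair, and Per1 is also an immediate early gene. Per1 had 29.2, 33.8 and 52.2 CPM in RBM3KO and 35.8, 23.2 and 21.1 CPM in WT. RBM3KO replicate 3 was highest and the genotypes overlapped (log2 fold change 0.52, SE 0.30, 95% interval -0.13 to 1.18, edgeR adjusted p = 0.537). The 14 listed immediate early genes all had estimates above 0, beside 5793 of all 11382 tested genes. Their median log2 fold change was 0.45 against 0.01. None passed edgeR's test, and 10 had an unadjusted p under 0.05, beside 1403 of all 11382 tested genes. DESeq2 called 2 of the 14 higher and limma-voom 1, beside 158 of 14416 and 52 of 11382 genes. The most abundant of them were Junb (0.29, SE 0.10, edgeR adjusted p = 0.274) and Dusp1 (0.30, SE 0.14, edgeR adjusted p = 0.410). Of the 9 listed glucocorticoid response genes, another class of signal that reaches Per1, 6 estimates were above 0 and 3 below, with 0 past the test and a median of 0.19.

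Per2 had 4.96, 2.15 and 0 CPM in RBM3KO, from 76, 36 and 0 counts, and 0.887, 3.29 and 4.19 CPM in WT, from 12, 56 and 107 counts. The count of 0 in RBM3KO replicate 3, the shallowest library, is read as up to 3 counts, or 0.403 CPM, a floor that covers counting error only. Neither genotype stood apart (log2 fold change -0.22, SE 1.29, 95% interval -3.08 to 2.63, edgeR adjusted p = 0.977), and the estimate turned to 0.34 without RBM3KO replicate 3 and to 0.19 without WT replicate 3. Per3 had 3.59, 8.06 and 3.10 CPM in RBM3KO and 5.91, 4.82 and 7.40 CPM in WT, with the highest and the lowest library both RBM3KO (-0.29, SE 0.60, 95% interval -1.61 to 1.03, edgeR adjusted p = 0.925).

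The cryptochromes CRY1 and CRY2 are the partners of PER in repression. Cry1 was the most abundant of the 10 and the most even. It had 67.9, 79.5 and 78.2 CPM in RBM3KO and 85.7, 77.8 and 87.4 CPM in WT. The log2 fold change of -0.15 (SE 0.14, edgeR adjusted p = 0.781) had a 95% interval of -0.47 to 0.16, which leaves no room for a change as large as that of Nr1d2. Cry2 had 9.39, 10.5 and 11.04 CPM in RBM3KO and 7.91, 7.88 and 9.44 CPM in WT, where the lowest RBM3KO library fell just under the highest WT library (0.29, SE 0.38, 95% interval -0.55 to 1.13, edgeR adjusted p = 0.861). Cry2 shares 295 of 6320 exon bases with the opposite-strand transcript D930015M05Rik, which had 0, 0.0597 and 0 CPM in RBM3KO and 0.665, 0.294 and 0.196 CPM in WT.

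Dbp encodes the D-box activator and in many tissues has one of the widest daily swings of any transcript. Its counts were 16, 69 and 3 in RBM3KO and 58, 55 and 32 in WT, which are 1.04, 4.12 and 0.404 CPM and 4.29, 3.23 and 1.25 CPM. Dbp varied 10.2-fold among the RBM3KO libraries and 3.42-fold among the WT libraries, more than it differed between genotypes (log2 fold change -0.63, SE 1.10, 95% interval -3.07 to 1.80, edgeR adjusted p = 0.904). The lowest library in WT was replicate 3, the deepest of all, and the lowest in RBM3KO was replicate 3, the shallowest of all. The part of depth in these Dbp values was not tested. Dbp shares 539 of its 2993 exon bases, or 18.0%, with the opposite-strand gene Sphk2, which had 51.3, 34.0 and 61.9 CPM in RBM3KO and 48.0, 49.96 and 43.7 CPM in WT. Part of the reads counted for Dbp may therefore belong to Sphk2, which was not tested.

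On the Arntl side, Arntl had 24.7, 38.9 and 45.5 CPM in RBM3KO and 29.3, 24.1 and 48.8 CPM in WT. Libraries of both genotypes spread over the same range (log2 fold change 0.09, SE 0.32, 95% interval -0.61 to 0.78, edgeR adjusted p = 0.961), so Arntl, the best known target of the REV-ERB receptors, was not measurably lower where Nr1d2 was higher. The Arntl estimate was below 0 without WT replicate 1, WT replicate 2 or RBM3KO replicate 3, and ran from -0.11 without WT replicate 2 to 0.44 without WT replicate 3. Clock had 0, 6 and 22 counts in RBM3KO and 43, 119 and 62 in WT, which are 0, 0.358 and 2.96 CPM and 3.18, 6.99 and 2.43 CPM. RBM3KO replicates 1 and 2 lay under all WT libraries and RBM3KO replicate 3 lay between WT replicates 3 and 1. The floor of 3 counts for the count of 0 is 0.196 CPM. The estimate was the largest of the 10 in size and the least precise (-1.98, SE 1.40, 95% interval -5.08 to 1.12, edgeR adjusted p = 0.661), and it was -4.48 without RBM3KO replicate 3 (edgeR adjusted p = 0.293).

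**Figure D3:**
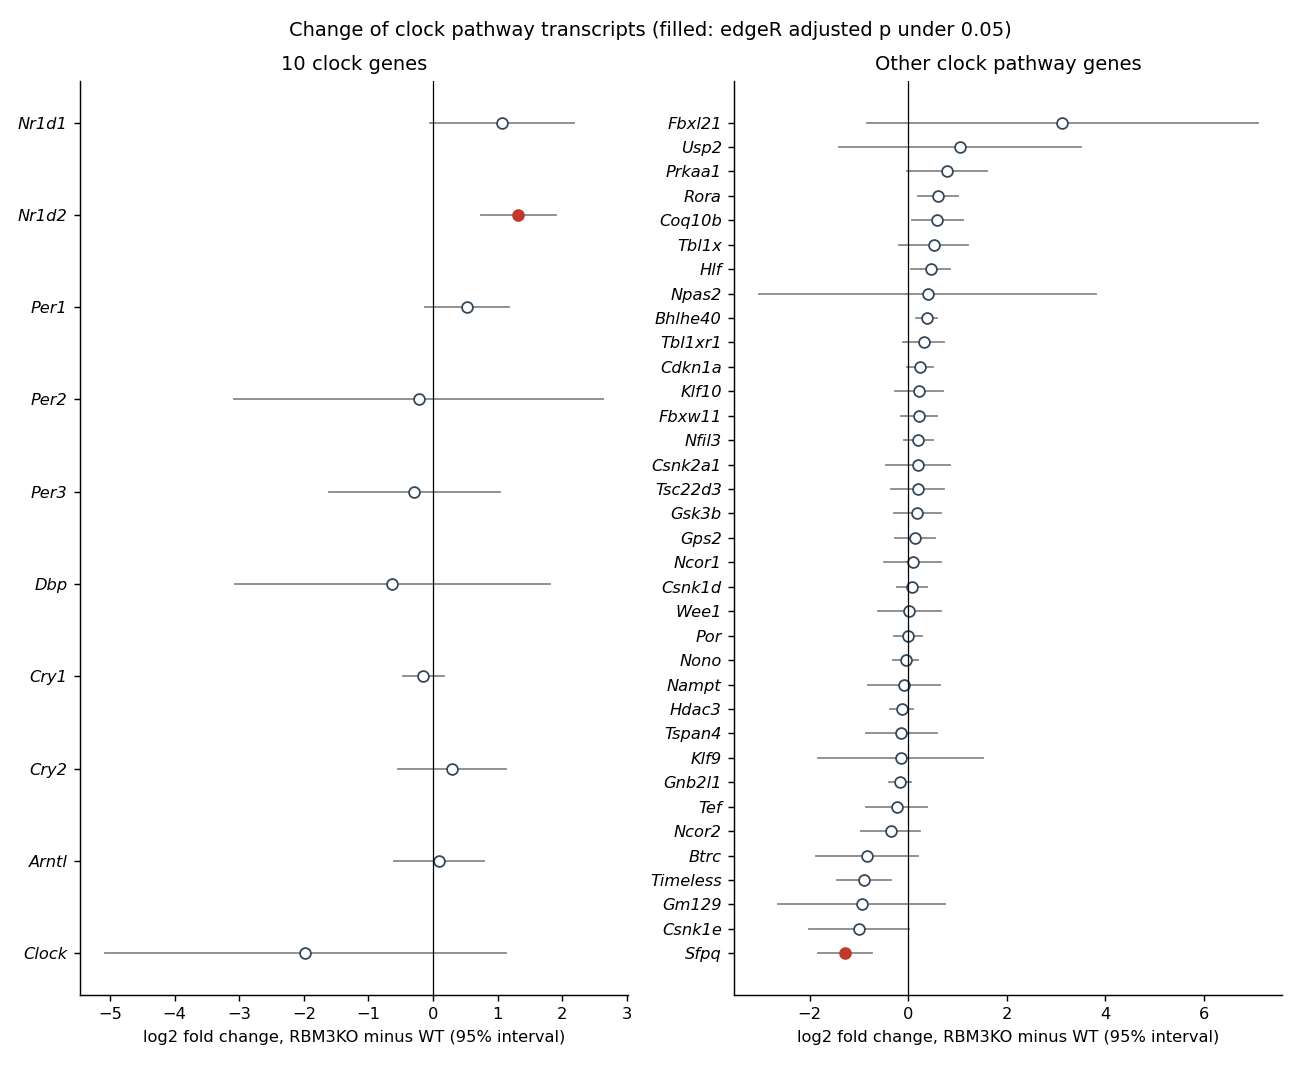
Log2 fold changes (RBM3KO minus WT) with 95% intervals for the 10 clock genes at the left and other tested genes of the clock pathway at the right, filled where the edgeR adjusted p is under 0.05. Nr1d2 (1.32) and Sfpq (-1.28) are filled, and Clock, Per2 and Dbp carry the widest intervals of the 10.

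Levels of different genes can be set side by side per kilobase of exon. In WT, Cry1 led with 25.0 ± 1.52 CPM per kilobase, followed by Per1 with 4.74 ± 1.41, Arntl with 4.53 ± 1.73, Nr1d1 with 3.28 ± 1.05 and Nr1d2 with 2.52 ± 0.391 (SD, n = 3). Cry2 had 1.33 ± 0.141, Dbp 0.977 ± 0.515, Per3 0.629 ± 0.135, Per2 0.476 ± 0.292 and Clock 0.306 ± 0.178. The Cry1 libraries lay above those of every other gene, and the Nr1d2 libraries above those of Cry2. Neighbours from Per1 to Nr1d2 and from Cry2 to Clock had overlapping libraries. In RBM3KO, Cry1 again led with 22.5 ± 1.90, and Nr1d1 (6.89 ± 5.05), Per1 (6.82 ± 2.16), Nr1d2 (6.31 ± 1.01) and Arntl (4.83 ± 1.42) overlapped. Clock had the lowest mean in RBM3KO too, at 0.0806 ± 0.118, but lay above Per2 and Dbp in RBM3KO replicate 3.

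Members were also read by the part of the loop in which their transcripts peak. The E-box and D-box side held 6 members, of which Nr1d1, Nr1d2 and Per1 had estimates above 0 and Per2, Per3 and Dbp below 0. Averaged as the log2 of CPM + 1 relative to the WT mean, the 6 stood at 0.47, 0.46 and -0.31 in the RBM3KO libraries and at -0.07, -0.02 and 0.09 in the WT libraries. Without Nr1d2 the other 5 stood at 0.27, 0.35 and -0.63 in RBM3KO and at -0.04, -0.02 and 0.06 in WT, so the RBM3KO libraries fell on both sides of WT. Arntl, Clock and Cry1 were read as the Arntl side, the last because the REV-ERB receptors also repress it and its peak is late although it has E-boxes, and Cry2 was put on neither. These 3 stood at -0.99, -0.55 and 0.03 in RBM3KO and at -0.11, 0.07 and 0.04 in WT. Clock, at 0 to 22 counts a library in RBM3KO, was the most displaced of these 3 in RBM3KO replicates 1 and 2. With or without Nr1d2, both sides had opposite signs in each RBM3KO library, and RBM3KO replicate 3 was turned round against replicates 1 and 2. The signs were also opposite in WT replicate 2 (-0.02 and 0.07) and alike in WT replicates 1 and 3. The Arntl side of RBM3KO replicate 3, at 0.03, however lay within the WT range. In RBM3KO replicate 2 that side was below 0 through Clock (-1.84, from 6 counts), with Arntl at 0.25 and Cry1 at -0.07. In RBM3KO replicate 1 all 3 were below 0 (Arntl -0.39, Clock -2.28, Cry1 -0.29). Over all 11 listed genes of the E-box and D-box side the values were 0.28, 0.14 and -0.21 in RBM3KO and 0.02, -0.01 and -0.01 in WT. Over all 6 of the Arntl side they were -0.34, -0.05 and 0.11 in RBM3KO and -0.04, -0.08 and 0.12 in WT, and there RBM3KO replicates 2 and 3 lay within the WT range. Over these whole lists the signs were opposite in each RBM3KO library and also in WT replicates 1 and 3.

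**Figure D4:**
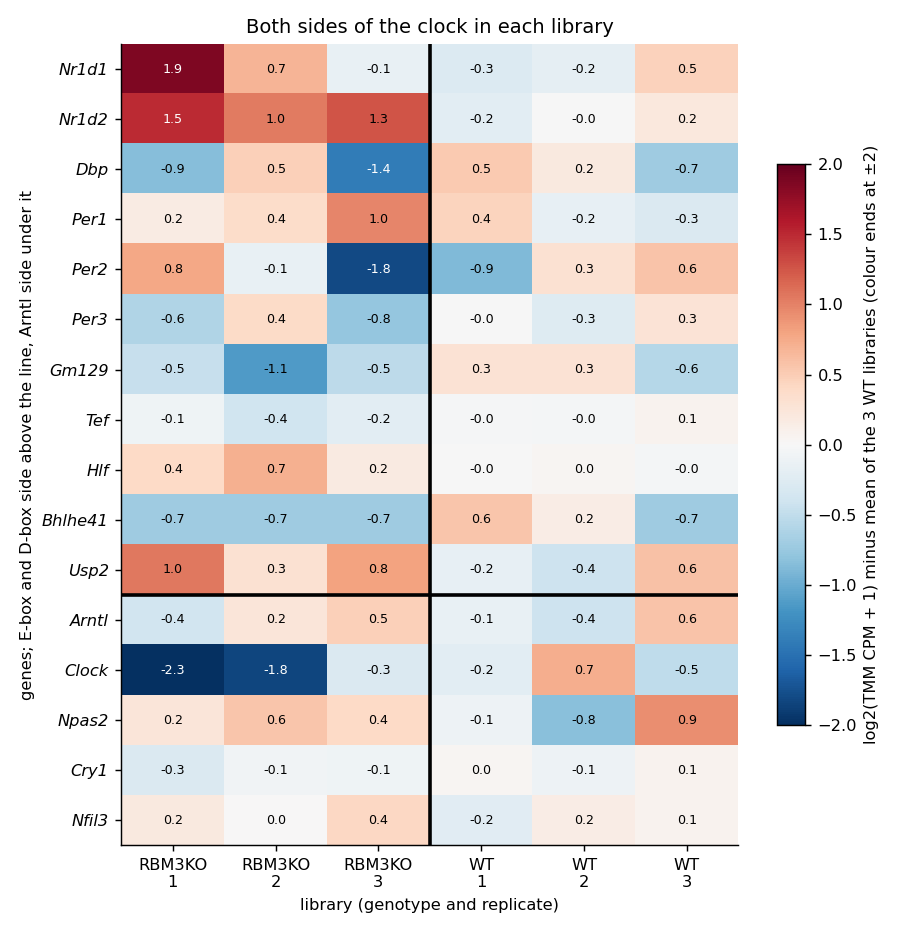
Log2 of TMM CPM + 1 minus the mean of the 3 WT libraries for genes of the E-box and D-box side (above the line) and of the Arntl side (under it), in RBM3KO libraries at the left and WT libraries at the right. Gm129 is Ciart. The Nr1d2 row is positive in all 3 RBM3KO libraries, as are other rows, among them Per1, Hlf and Nfil3. Dbp, Per2 and Per3 have both signs there.

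Ratios of counts within a library need no scaling between libraries. With 0.5 counts added to each gene, a ratio to Clock in RBM3KO replicate 1 or to Per2 in RBM3KO replicate 3, where the count was 0, is set by that addition and the depth. The 45 pairs of the 10 genes were compared by a two-sided exact permutation test, which cannot go below p = 0.1 with 3 against 3. The log2 ratio of Nr1d2 to Arntl, a receptor to its target, was 0.69, -0.43 and -0.43 in RBM3KO and -1.33, -0.84 and -1.62 in WT, with no overlap (difference 1.21, exact p = 0.1). The ratio of Nr1d2 to Cry1 was -0.77, -1.46 and -1.21 in RBM3KO and -2.88, -2.53 and -2.46 in WT, again with no overlap (difference 1.48, exact p = 0.1). Nr1d2 also stood higher in RBM3KO with no overlap relative to Per3 (difference 1.72), Cry2 (1.02) and Clock, so it did in 5 of its 9 pairs. The 9 ratios share the same Nr1d2 counts, which by themselves did not overlap between genotypes. The pairs are therefore not separate evidence. For Clock the size of the difference, 4.82, depends in part on the count of 0 in RBM3KO replicate 1. It was 3.02 without that library and 6.40 without RBM3KO replicate 3. The ratios of RBM3KO replicates 2 and 3 (6.22 and 3.48), from 6 and 22 Clock counts, also lay above those of WT (0.94 to 2.69). Genotypes did not overlap in 4 of the 36 pairs without Nr1d2. These were Nr1d1 to Per3, Per1 to Cry1 and Per1 to Clock, higher in RBM3KO, and Cry1 to Cry2, lower in RBM3KO. For a pair with no genotype difference, separation of 3 against 3 has a probability of 0.1. After adjustment over the 45 pairs the lowest exact p was 0.5, so no pair passed.

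Against Arntl, the E-box and D-box genes other than Nr1d2 had differences of both signs. The ratio of Nr1d1 to Arntl was 0.65, -1.26 and -2.37 in RBM3KO and -1.88, -1.49 and -1.82 in WT, where RBM3KO replicate 1 was highest and RBM3KO replicate 3 lowest (difference 0.74, exact p = 0.6). The difference was -1.15 for Dbp to Arntl (exact p = 0.5), -0.52 for Per3 to Arntl (exact p = 0.4), -1.49 for Per2 to Arntl (exact p = 0.7), which holds the count of 0, and 0.41 for Per1 to Arntl (exact p = 0.7). The ratio of Nr1d2 to Nr1d1 was 0.04, 0.83 and 1.94 in RBM3KO and 0.55, 0.65 and 0.19 in WT (difference 0.47, exact p = 0.5). Nr1d2 was thus not shown to have changed more than its paralogue, and without RBM3KO replicate 3 that difference was -0.03. The intervals of Dbp, Per2 and Clock span changes in either direction, and with the hour of collection not given a phase difference and a change of single genes cannot be told apart here.

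**Figure D5:**
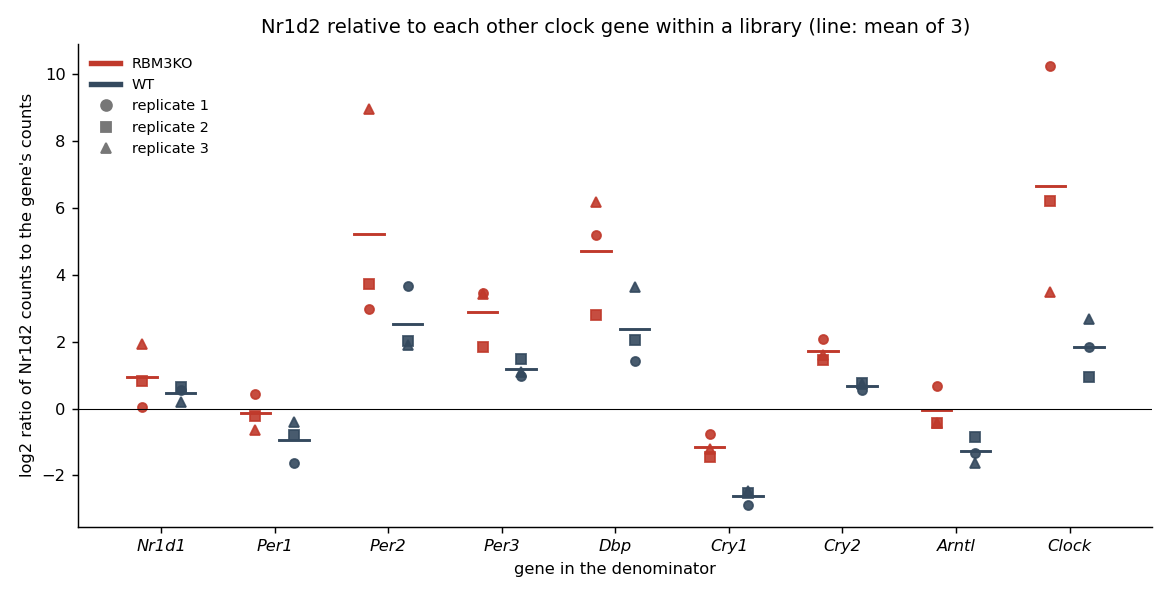
Within-library log2 ratio of Nr1d2 counts to those of each other clock gene (0.5 counts added), RBM3KO left of WT for each gene, with the mean as a line and a marker shape per replicate. For Cry1 the ratios lie at -1.46 to -0.77 in RBM3KO and at -2.88 to -2.46 in WT, while for Nr1d1 the genotypes overlap.

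Outside the 10, 40 genes of the clock pathway were listed, of which 38 were in the table and 37 tested. Of these 0 rose and 1 fell, beside 0.246% and 1.00% of all tested genes, and their median log2 fold change was 0.19 against 0.01. The gene that fell was Sfpq, a nuclear RNA-binding protein of the PER complex, with 24.9, 27.9 and 47.8 CPM in RBM3KO and 75.2, 81.8 and 86.0 CPM in WT (log2 fold change -1.28, SE 0.24, edgeR adjusted p = 0.0388). Leaving out RBM3KO replicate 3 kept that call, and leaving out any other library ended it (adjusted p 0.0896 to 0.144). Its partner in that complex, Nono, had 313, 305 and 262 CPM in RBM3KO and 321, 323 and 265 CPM in WT, named after its values were seen.

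Rora encodes a receptor that activates Arntl through the element that the REV-ERB receptors repress. Rora, which ILC2s need, had 106, 102 and 151 CPM in RBM3KO and 64.2, 86.3 and 84.6 CPM in WT, with no overlap, and did not pass (edgeR adjusted p = 0.179, log2 fold change 0.61, SE 0.18). Among the PAR bZIP factors, which share the D-box with DBP, Hlf had 67.8, 84.2 and 57.9 CPM in RBM3KO and 50.9, 52.5 and 49.8 CPM in WT, again with no overlap and not past the test (0.46, SE 0.18, edgeR adjusted p = 0.330). Nfil3, their antagonist and a factor needed for ILC development, had 337, 296 and 391.7 CPM in RBM3KO and 252, 326 and 307 CPM in WT (0.21, SE 0.13, edgeR adjusted p = 0.596).

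Of the 10 kinases, ligase subunits and the deubiquitinase that act on PER and CRY, 0 passed. Csnk1d, a kinase of PER, had 193, 203 and 263 CPM in RBM3KO and 184, 235 and 204 CPM in WT. Fbxw11, a ligase subunit that recognises phosphorylated PER, had 179, 153 and 109 CPM in RBM3KO and 124, 132 and 124 CPM in WT. None of the 6 genes of the REV-ERB corepressor complex passed, with Hdac3, its deacetylase, at 149, 165 and 155 CPM in RBM3KO and 175, 159 and 179 CPM in WT, and Gps2 at 112, 77.0 and 82.6 CPM and 69.8, 79.9 and 97.7 CPM.

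Of the 9 clock-controlled output genes, 0 passed, with 5 estimates above 0, 4 below and a median log2 fold change of 0.03. Cdkn1a, a cell cycle inhibitor, had 497, 533 and 500.4 CPM in RBM3KO and 405, 375 and 518 CPM in WT, and Tsc22d3, which also answers glucocorticoids, 448, 223 and 511 CPM and 378, 286 and 367 CPM. Cirbp, the relative of Rbm3 named above, had 98.0, 88.0 and 87.4 CPM in RBM3KO and 65.0, 59.7 and 84.7 CPM in WT. Its genotypes did not overlap, and it was not past the test (0.38, SE 0.17, edgeR adjusted p = 0.383).

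The values of other features of the libraries are given beside Nr1d2, and their part in its change was not tested. The 10 listed proliferation genes summed to between 812 and 862 CPM of the total count in RBM3KO and between 1480 and 1741 in WT. Of the 10, 7 fell, beside 1.00% of all tested genes, and 3 without WT replicate 1. Among the 7 was Plk1, a mitotic kinase (log2 fold change -1.67, SE 0.18, edgeR adjusted p = 0.00415). The 6 B and plasma cell markers in the table summed to between 1317 and 1620 CPM in RBM3KO and between 1631 and 2404 in WT, with all 6 estimates below 0 and 0 past the test. The 10 myeloid markers summed to between 149 and 232 CPM in RBM3KO and between 206 and 351 in WT, with 8 of 9 tested estimates below 0 and 1 past the test. The 7 epithelium markers summed to 16.3, 19.7 and 274 CPM in RBM3KO and to 33.0, 99.8 and 19.3 CPM in WT, with 0 past the test. RBM3KO replicate 3 was thus the highest library for them. Malat1, a nuclear RNA, had 443, 327 and 731 CPM in RBM3KO and 260, 206 and 302 CPM in WT. Its genotypes did not overlap, and it was not past the test (0.96, SE 0.25, edgeR adjusted p = 0.109).

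Patterns over the 6 libraries were compared with that of Nr1d2 by Pearson's r on log2 CPM. The search took in 7607 genes at a mean of 10 CPM or more. With predicted genes and pseudogenes passed over, the most similar were Hif1a, Mpped2 and Sgms1. Their r was 0.992, 0.991 and 0.990, and 50 of the 7607 had an r above 0.95, so with so few libraries such values are a description only. Hif1a, the oxygen-sensing factor, had 172, 154 and 169 CPM in RBM3KO and 107, 120 and 121 CPM in WT. Mpped2 had 16.2, 11.6 and 13.1 CPM in RBM3KO and 6.50, 6.94 and 7.24 CPM in WT. Sgms1, a sphingomyelin synthase, had 378, 331 and 367 CPM in RBM3KO and 184, 204 and 247 CPM in WT.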

How the data were processed

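Transcript levels came from 6 Smart-seq2 RNA-seq libraries. The authors deposited raw read counts per gene symbol, unnormalized and 1 column per library, with 0 columns of other samples. Named in the submitters' processing notes, with no role or order, are build mm10, featureCounts 1.6.5, STAR 2.6.1c and Bowtie 1.0.0, while annotation and strand setting were not given in the sources used here. Symbols were matched to GENCODE M21 (mm10 assembly) for 14235 genes, 13038 by symbol and 1197 by a synonym, for coordinates (1-based), exon length and GC content.

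Genes were filtered with filterByExpr (11382 kept, 99.9% of counts), scaled by TMM and tested in edgeR 4.0.16 (R 4.3.3) with its robust quasi-likelihood test, adjusted by Benjamini-Hochberg over all tested genes at 0.05. Log2 fold changes are RBM3KO minus WT, and intervals use the moderated degrees of freedom. The fit was tested on simulated data. Alternatives included DESeq2 1.42.0, limma-voom 3.58.1, other scalings and filters, a replicate block, a GC offset and leaving out each library. No 2 libraries agreed within sampling noise. Whether each library is a separate animal is not in the labels, so the p-values reflect only how far these libraries spread, and part of that spread may be technical.

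The 10 genes and all lists were chosen with earlier results of these data known. Named outside the 10 are list members past the threshold, otherwise the 2 most abundant of a list, and for each clock gene past the threshold the 3 most similar genes. Predicted genes and pseudogenes were passed over in naming the similar genes. Malat1, Thra, Sphk2 and D930015M05Rik were named for the checks they serve. Some genes of the lists enter the counts but are not reported here by name or value.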

Additional observations from a re-analysis of the deposited data

How the results depend on the processing

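The Nr1d2 estimate stayed above 0 under all 18 alternatives, and its call under 9 of them. With the GC content offset it was 1.36 (edgeR adjusted p = 0.0629), with the replicate block 1.32 (adjusted p = 0.0678) and with the block and the GC offset 1.35 (adjusted p = 0.0829), so each of these left 0 of the 10 called. Without single libraries it ran from 1.20 to 1.44, with 0 of the 10 called each time. The replicate numbers do not pair the libraries by any label, and the correlations of same-numbered deviations were 0.056, 0.057 and 0.005, so the block compares shared numbers only. It called 149 genes over the table.

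The median of the 10 was 0.53 at 10 CPM or more in 3 libraries, where fewer of them were tested, and ran from -0.10 to 0.28 without single libraries. The signs of Arntl and Per2 were not fixed: Arntl was -0.039 with limma-voom and -0.11 to 0.44, and Per2 -1.33 to 0.34, without single libraries. The difference in the ratio of Nr1d2 to Nr1d1 ran from -0.030 to 0.92 in the same way, and the other 8 ratios to Nr1d2 kept their sign under each alternative run on ratios. Among the other clock genes DESeq2 called 1 higher and 2 lower and limma-voom called 1 higher, and without single libraries 0 to 1 were called lower, with a median of 0.040 to 0.20.

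Over all genes, DESeq2 called 434 (158 higher, 276 lower). Higher calls numbered 16 with total count scaling, 48 with no filter, 59 at 10 CPM or more and 52 with limma-voom. Without single libraries 12 to 99 genes were called, 1 to 18 higher and 11 to 85 lower. Among the 10, Per2, Dbp and Clock had few counts and a wide spread between libraries of 1 genotype, and the widest intervals.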
